A study of Mus musculus with 12 samples.

Results

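The comparison described here sets 3 untreated libraries of a RAW 264.7 line labelled sh-PHLPP1 against 3 untreated libraries of the control line, sh-Luc. These are 6 of the 12 bulk RNA sequencing libraries of the series, taken by their column names in the deposited count table. RAW 264.7 is a mouse macrophage line of BALB/c origin. Per the labels, each line received its short hairpin RNA (shRNA) by nucleofection, directed against PHLPP1 or against luciferase, which mouse cells do not have. Both were selected with puromycin, so every library here comes from cells that carry an shRNA construct and a resistance gene. Each group is 1 stably selected line, not said to be a clone or a pool, sampled at passages 9, 10 and 11, which the labels number as replicates 1, 2 and 3. The p-values reflect how far cultures of the same line varied from passage to passage, and a difference between lines may belong to either line as such. The other 6 libraries are the same lines after 24 h in 100 µg/ml of OxLDL, a low-density lipoprotein in its oxidised form.

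PHLPP1 is a phosphatase that removes an activating phosphate from AKT and acts on several other kinases. AKT signalling promotes cell growth, glucose use and lipid synthesis through the SREBP transcription factors, while AMPK restrains lipid synthesis when energy is short. Macrophages take up modified lipoproteins through scavenger receptors such as CD36 and SR-A, and export surplus cholesterol through ABCA1 and ABCG1. When activated, they make nitric oxide, prostaglandins and chemokines.

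The untreated libraries held 19500787 to 26562748 counts, with sh-PHLPP1 replicate 1 the lowest, and 16533 to 16832 genes with a count. The 2 libraries sh-PHLPP1 replicate 1 and sh-Luc replicate 2 stood apart from their groups. At 1376 of 13121 genes tested (10.5%), sh-PHLPP1 replicate 1 lay at least 1 above or at least 1 below both replicates 2 and 3 in log2 CPM. CPM is a gene's read count relative to the scaled total of its library. The same count was 550 genes (4.19%) for sh-Luc replicate 2 and between 39 and 82 genes for the other 4 untreated libraries. Replicates 2 and 3 of sh-PHLPP1 had a Pearson correlation of 0.995 over genes in log2 CPM. Replicate 1 had correlations of 0.967 and 0.966 with them, below its correlations of 0.979 and 0.977 with sh-Luc replicates 1 and 3, and close to its 0.968 with sh-Luc replicate 2. These correlations are across genes, which are not independent replicates. Replicate 1 is the only passage 9 library of its group, so the library, its culture and its passage cannot be told apart. The passage 9 library of the sh-Luc line stood apart at 82 genes. Most markers listed for other cell types had few counts: of 61 genes for fibroblasts, epithelial, endothelial, T, NK, B, granulocytic, mast and dendritic cells, 12 passed the filter on low counts, 3 of them called higher and 3 lower in the sh-PHLPP1 line. The highest were the T and NK cell gene Lck, with 4.18 to 8.85 CPM in sh-Luc and 10.95 to 17.3 CPM in sh-PHLPP1 (called higher), and the B cell gene Blnk, with 13.2 to 18.2 and 18.5 to 23.4 CPM (not called). The granulocyte gene S100a8 had 0.644 to 1.18 CPM in sh-Luc and at most 0.133 CPM in sh-PHLPP1 (called lower). The part of such cells in the results was not tested. Among the defining markers, Cd3e, Epcam and Ly6g had 0 counts in all 6 libraries.

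Across all genes, the libraries labelled sh-PHLPP1 differed widely from sh-Luc. In edgeR's quasi-likelihood test with Benjamini-Hochberg adjustment, 3549 of 13121 genes (27.0%) were called at an adjusted p under 0.05, with 1950 higher (14.9%) and 1599 lower (12.2%) in the sh-PHLPP1 line. Of the called genes, 1181 differed by at least 1 on the log2 scale, 750 of them higher and 431 lower. The 2 groups did not overlap at 3111 of the called genes (87.7%), against 4836 of all genes tested (36.9%). The median log2 fold change over all genes was 0.03. It was 0.15 when libraries were scaled by their totals alone, and the share of higher calls was then 72.5% in place of 54.9%. The spread in this test was estimated over all 12 libraries. With the spread of the 6 untreated libraries alone, 733 genes were called (425 higher and 308 lower). Of the 85 called genes that are named below, 51 were called in that fit too.

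The number of calls rested strongly on replicate 1. Without it, 6372 of 13400 genes (47.6%) were called, 3294 higher and 3078 lower. Of these, 3490 were also called with it, all with the same sign, and 2882 were called only without it. Another 59 genes were called only with replicate 1. Leaving out sh-PHLPP1 replicate 2 or 3 gave 1515 or 1566 calls, and leaving out sh-Luc replicate 2 gave 2247. Without both libraries that stood apart, 6267 genes were called. Counts of called list members below stand beside 27.0% of all genes called, and 47.6% without sh-PHLPP1 replicate 1.

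**Figure D1:**
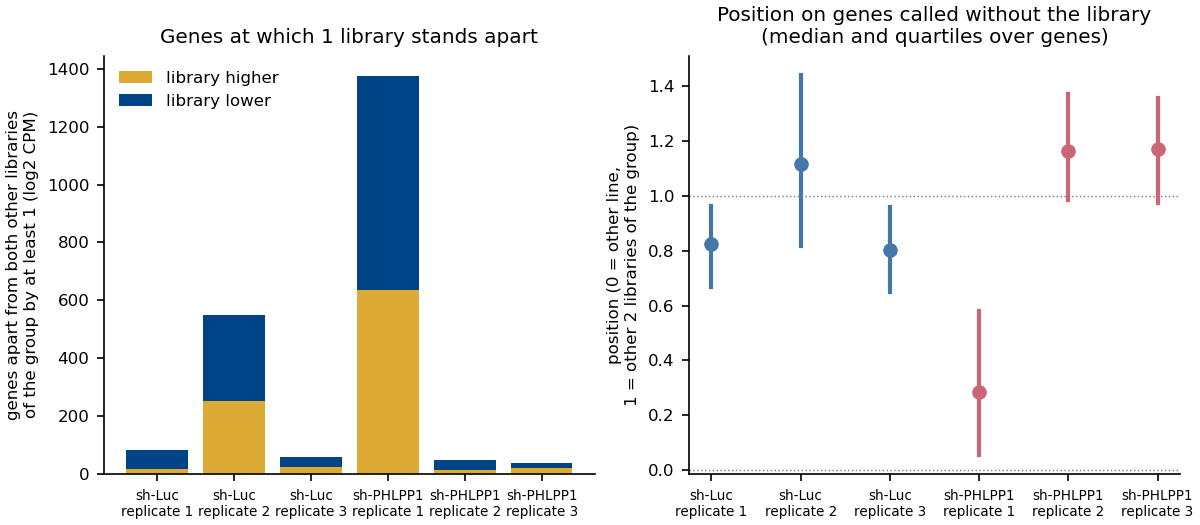
Left, number of genes at which each untreated library lay at least 1 in log2 CPM above or below both other libraries of its group. Right, median position and quartiles over the genes called in the fit without that library, where 0 is the mean of the other line and 1 the mean of the other 2 libraries of the group; sh-PHLPP1 replicate 1 has the tallest bar (1376 genes) and the lowest position (0.286).

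Replicate 1 was near sh-Luc at some genes, between the lines at others and near its own line at fewer. For a placement that its own values did not enter, the genes called in the fit without it were taken where replicates 2 and 3 differed from the sh-Luc mean by at least 1 in log2 CPM (2085 genes). On a scale with 0 at the sh-Luc mean and 1 at the mean of replicates 2 and 3, the median position of replicate 1 was 0.286. It was 0.349 over the 1118 genes that were higher in replicates 2 and 3 and 0.199 over the 967 that were lower. At 951 of the genes (45.6%) replicate 1 had a position under 0.25, near sh-Luc, and at 401 (19.2%) its position was below 0, on the far side of the sh-Luc mean. At 806 (38.7%) it was between, and at 328 (15.7%) it was over 0.75, near its own line. The other 5 untreated libraries, placed in the same way, had medians of 0.801 to 1.17. For sh-PHLPP1 replicates 2 and 3 this scale has replicate 1 in its own-line mean.

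Of the 1376 genes at which replicate 1 stood apart, it was higher than replicates 2 and 3 at 637 and lower at 739. Among those where it was higher, it was nearer to the sh-Luc mean than to them at 608 (95.4%). Among those where it was lower, this held at 665 (90%). Replicate 1 had values of its own, at least 1 beyond all 5 other libraries, at 26 of the first and 69 of the second.

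**Figure D2:**
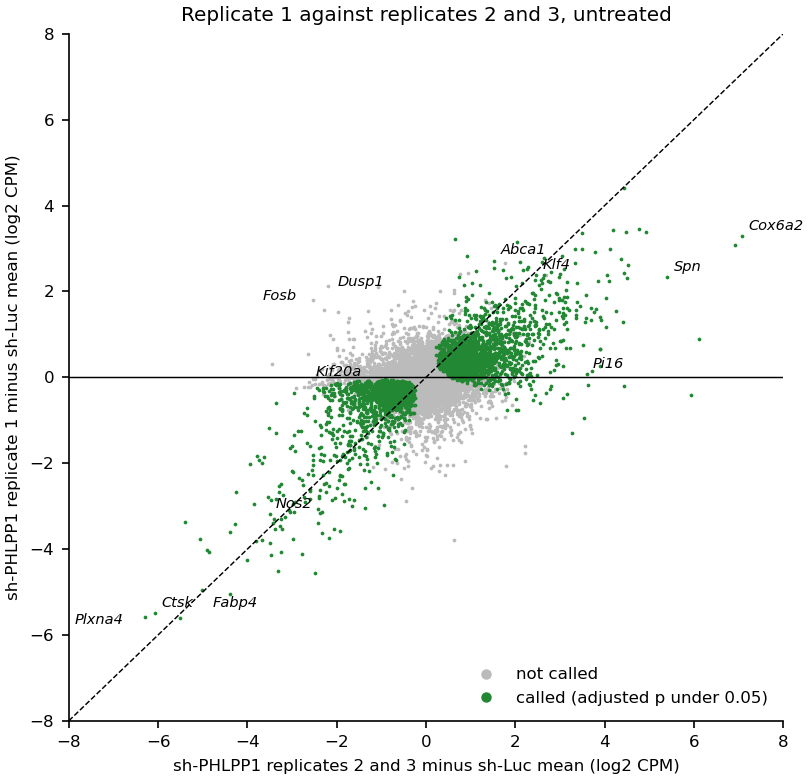
Difference from the sh-Luc mean in log2 CPM for sh-PHLPP1 replicates 2 and 3 together (x axis) and for replicate 1 (y axis), 1 point per gene tested, with called genes in green. Genes on the dashed line had equal differences in all sh-PHLPP1 libraries, such as Nos2 and Klf4, and genes on the horizontal line had the sh-Luc level in replicate 1, such as Kif20a and Pi16.

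The targeted gene did not have a lower level in the untreated libraries labelled sh-PHLPP1. Phlpp1 (ENSMUSG00000044340, GRCm38 chr1:106171752-106394250, plus strand) had 12.4, 14.4 and 13.3 CPM in sh-Luc replicates 1 to 3 and 17.3, 14.6 and 14.0 CPM in sh-PHLPP1. All 3 values of the sh-PHLPP1 line lay at or above the middle of the sh-Luc values. The log2 fold change was 0.19 ± 0.13 (SE, n = 3 per group; 95% interval -0.06 to 0.45; adjusted p = 0.279, edgeR's quasi-likelihood test with Benjamini-Hochberg adjustment). Without replicate 1 it was 0.09. After OxLDL the same line had 8.65, 8.35 and 7.40 CPM against 11.4, 13.5 and 11.4 CPM in sh-Luc, a log2 fold change of -0.57 ± 0.14 (SE; adjusted p = 0.00385). The libraries are therefore called by their label. Phlpp2, the related phosphatase, had 8.42, 9.49 and 7.63 CPM in sh-Luc and 10.2, 11.5 and 10.2 CPM in sh-PHLPP1, a log2 fold change of 0.32 that was not called (adjusted p = 0.2).

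The kinases and factors that act with PHLPP1 were called about as often as genes in general. Among 29 tested genes of AMPK, AKT and PHLPP signalling, 6 rose and 2 fell, with a median log2 fold change of 0.00, a share called close to the 27.0% of all genes. Without sh-PHLPP1 replicate 1, 6 rose and 8 fell, a share close to the 47.6% of all genes called in that fit. Without replicate 2, 2 rose and none fell. Gsk3b, a kinase that AKT inhibits, had 72.5, 72.4 and 75.9 CPM in sh-Luc and 96.1, 131 and 117 CPM in sh-PHLPP1, a rise of 0.64 in log2. All 3 sh-PHLPP1 libraries were above all sh-Luc libraries, with replicate 1 the lowest of them. Foxo1, a transcription factor that AKT keeps out of the nucleus, rose by 0.74, and was not called without sh-PHLPP1 replicate 2 (0.55). Mlx, the partner of ChREBP, fell by 0.40 in log2, and was not called without sh-Luc replicate 1 (-0.34) or sh-PHLPP1 replicate 2 (-0.35). Prkaa1, the catalytic AMPK subunit of these cells, had a log2 fold change of -0.05 that was not called. Prkaa2, the other catalytic subunit, had 0 counts in all 6 libraries. Mlxipl, which encodes ChREBP, had 1 count in 1 of the 6.

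Several inflammatory genes were low in all 3 sh-PHLPP1 libraries. Among 27 tested inflammatory cytokines and enzymes, 12 fell, 1 rose and 14 were not called, with a median log2 fold change of -0.77 against 0.03 over all genes. On the 14 of these genes with a held-out placement, the median position of replicate 1 was 0.83. Without replicate 1, 14 fell and 2 rose.

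Nos2 (ENSMUSG00000020826, chr11:78920787-78960254, plus strand) encodes the inducible nitric oxide synthase. It had 38.7, 46.1 and 35.7 CPM in sh-Luc and 4.31, 3.13 and 3.80 CPM in sh-PHLPP1. The sh-PHLPP1 values were close together and far below every sh-Luc value. The log2 fold change was -3.43 ± 0.17 (SE; adjusted p = 7.46e-07, edgeR's quasi-likelihood test with Benjamini-Hochberg adjustment), which is 10.8-fold lower. Ptges, the prostaglandin E synthase, had 13.5, 18.4 and 13.6 CPM in sh-Luc and 1.28, 1.20 and 1.78 CPM in sh-PHLPP1, a log2 fold change of -3.41. Ptgs2, the inducible cyclooxygenase that supplies it, had 142, 549 and 157 CPM in sh-Luc and 41.2, 47.5 and 46.6 CPM in sh-PHLPP1, a log2 fold change of -2.65 that was -1.74 without sh-Luc replicate 2. For both, the groups did not overlap and replicate 1 was with its own line, while sh-Luc replicate 2 was the highest control. Acod1, which makes itaconate, fell from 51.0, 38.6 and 54.0 CPM in sh-Luc to 12.4, 10.3 and 10.9 CPM, a log2 fold change of -2.10.

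Of 14 chemokines tested, 8 fell and 1 rose, with replicate 1 between the lines for some of them and a median log2 fold change of -1.03. Ccl2, which attracts monocytes, had 11.6, 22.4 and 13.4 CPM in sh-Luc and 2.11, 1.40 and 1.07 CPM in sh-PHLPP1, a log2 fold change of -3.39. Cxcl2, which attracts neutrophils, had 119, 162 and 147 CPM in sh-Luc and 80.1, 37.4 and 50.8 CPM in sh-PHLPP1. Ccl4 had 229, 200 and 250 CPM in sh-Luc and 145, 76.9 and 84.8 CPM in sh-PHLPP1. In both, replicate 1 was the highest of its group and still below every sh-Luc library. Their log2 fold changes were -1.35 and -1.15. Without sh-PHLPP1 replicate 2 or 3, 5 chemokines fell in place of 8.

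Genes of lipid uptake included some of the strongest falls. Of 15 tested genes of lipoprotein and fatty acid uptake, 5 fell and 1 rose, and 9 fell without replicate 1. Cd36 (ENSMUSG00000002944, chr5:17781690-17888801, minus strand), the scavenger receptor for oxidised lipoproteins and a fatty acid carrier, had 133, 282 and 146 CPM in sh-Luc and 26.4, 20.6 and 17.6 CPM in sh-PHLPP1. All 3 sh-PHLPP1 libraries were low, and sh-Luc replicate 2 was the highest. The log2 fold change was -3.12 ± 0.26 (SE; adjusted p = 1.37e-05, edgeR's quasi-likelihood test with Benjamini-Hochberg adjustment). Fabp4, the fatty acid binding protein of macrophages and fat cells, had 20.5, 10.1 and 18.4 CPM in sh-Luc and 0.412, 0.433 and 0.357 CPM in sh-PHLPP1, a log2 fold change of -5.32. Msr1, which encodes the scavenger receptor SR-A, fell by 0.89 in log2, from 331, 458 and 318 CPM to 203, 203 and 190 CPM. In these 3 genes replicate 1 had the values of its own line. Fabp5, a related carrier, was different: its 21.4 CPM in replicate 1 lay between the 6.16 and 7.05 CPM of replicates 2 and 3 and the 114, 51.8 and 107 CPM of sh-Luc, and its log2 fold change was -2.99.

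In the largest falls among called genes whose groups did not overlap, replicate 1 was nearer to its own line than to sh-Luc. This choice of genes by itself puts replicate 1 below every sh-Luc library. Plxna4 (chr6:32144268-32588192, minus strand), a semaphorin co-receptor, had 27.8, 77.8 and 28.8 CPM in sh-Luc and 0.733, 0.366 and 0.476 CPM in sh-PHLPP1. Ctsk (chr3:95499256-95509362, plus strand), the collagen-degrading protease of osteoclasts, had 43.9, 170 and 38.6 CPM in sh-Luc and 1.37, 0.832 and 0.951 CPM in sh-PHLPP1. Lair1, an inhibitory receptor for collagen, had 17.2, 26.1 and 16.6 CPM in sh-Luc and 1.74, 0.999 and 0.832 CPM in sh-PHLPP1. No sh-PHLPP1 library came near the sh-Luc values in these genes, although replicate 1 was the highest of its group in each. Their log2 fold changes were -6.44 ± 0.47, -6.34 ± 0.59 and -4.08 ± 0.26 (SE), with adjusted p-values of 5.01e-06, 2.76e-05 and 2.07e-06 (edgeR's quasi-likelihood test with Benjamini-Hochberg adjustment). Vegfc, a lymphatic growth factor, fell by 4.70 in log2 and Bcl6b, a transcriptional repressor, by 2.32.

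RAW 264.7 cells can form osteoclasts. Of 16 osteoclast genes tested, 8 fell, none rose and 8 were not called, with a median log2 fold change of -0.83. Besides Ctsk, Mmp9, a gelatinase, fell by 1.52 in log2 and Src, a kinase needed for bone resorption, by 2.03. Acp5, the tartrate-resistant acid phosphatase, had 1.29, 7.68 and 1.01 CPM in sh-Luc and 0.504, 0.333 and 0.277 CPM in sh-PHLPP1. Its fall of 3.17 in log2 rested on the high value of sh-Luc replicate 2, and was 1.64 without it, still called. The list had 12 falls and 1 rise without sh-PHLPP1 replicate 1, and its count of falls was 6 without sh-Luc replicate 2, and 4 or 5 without sh-PHLPP1 replicate 2 or 3. The osteoclast genes Calcr and Oscar were at or near 0 in all 6 libraries.

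Some genes rose to the same level in all 3 sh-PHLPP1 libraries. Klf4, a transcription factor linked to alternative activation of macrophages, had 17.7, 10.1 and 21.7 CPM in sh-Luc and 82.2, 86.7 and 86.7 CPM in sh-PHLPP1. Clec7a, which encodes the beta-glucan receptor dectin-1, had 5.36, 5.39 and 5.73 CPM in sh-Luc and 14.0, 13.7 and 14.6 CPM in sh-PHLPP1. The sh-PHLPP1 values of both genes were nearly equal, with replicate 1 among them. Their log2 fold changes were 2.37 ± 0.22 and 1.36 ± 0.15 (SE), with adjusted p-values of 2.9e-05 and 0.000129 (edgeR's quasi-likelihood test with Benjamini-Hochberg adjustment). Maged1 rose by 2.34 in log2, and in it replicate 1 was the highest library, with 32.3 CPM against 20.4 and 22.6.

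**Figure D3:**
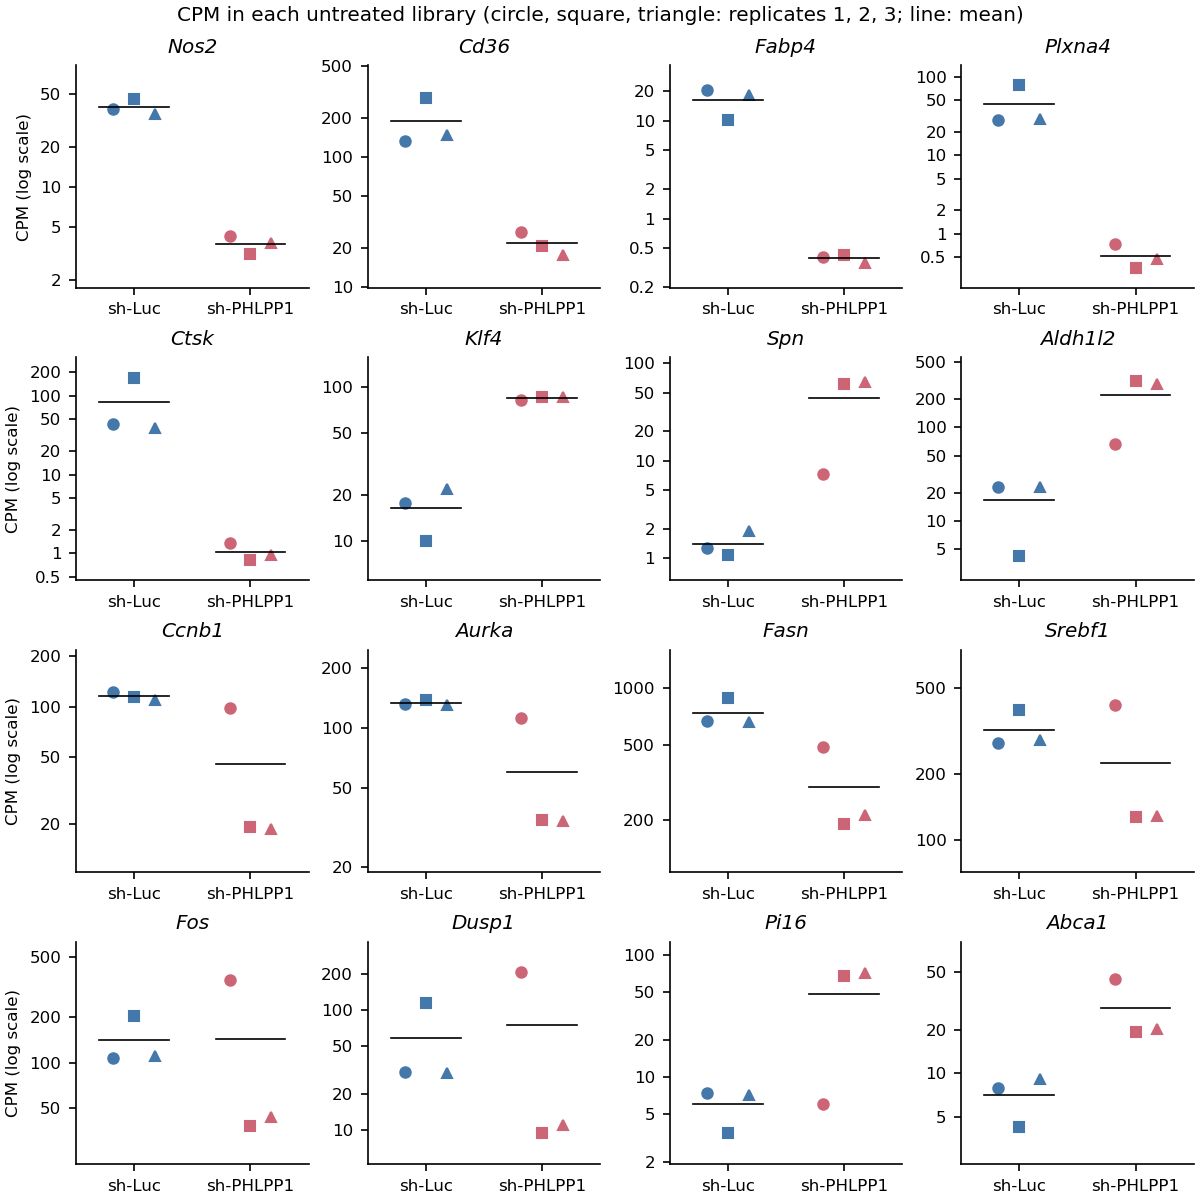
CPM on a log scale of 16 genes in the 6 untreated libraries, with symbols for replicates 1, 2 and 3 and a line at each group's mean. In Nos2, Cd36, Fabp4, Plxna4, Ctsk and Klf4 the 3 sh-PHLPP1 libraries lie together, while in Ccnb1, Aurka, Pi16 and Srebf1 replicate 1 lies near or beyond sh-Luc.

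Among called genes whose groups did not overlap, most of the strongest rises were graded, with replicate 1 well below replicates 2 and 3. That choice of genes by itself puts replicate 1 above every sh-Luc library. Spn (ENSMUSG00000051457, chr7:127132232-127137823, minus strand), which encodes the leukocyte surface protein CD43, had 1.29, 1.09 and 1.90 CPM in sh-Luc and 7.38, 61.3 and 63.7 CPM in sh-PHLPP1. Its log2 fold change was 4.95 ± 0.68 (SE; adjusted p = 0.000571, edgeR's quasi-likelihood test with Benjamini-Hochberg adjustment). Aldh1l2, a mitochondrial enzyme of folate metabolism, had 23.3, 4.26 and 23.1 CPM in sh-Luc and 66.3, 311 and 294 CPM in sh-PHLPP1. Pycr1, an enzyme of proline synthesis, had 5.90, 2.74 and 6.28 CPM in sh-Luc and 14.8, 51.2 and 53.1 CPM in sh-PHLPP1. The order of the libraries was the same in all 3 genes: sh-Luc lowest, replicate 1 in the middle, replicates 2 and 3 high and close together. Extl1, Nxf7, Sh2d6 and Tspan13 had this order too, with log2 fold changes of 4.14, 4.01, 3.83 and 3.13. Cox6a2, a muscle-type subunit of cytochrome c oxidase, had at most 7 counts in any sh-Luc library and 2.47, 31.4 and 40.3 CPM in sh-PHLPP1.

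Several stress genes rose, with replicate 1 nearer to its own line. Of 26 tested genes of endoplasmic reticulum and integrated stress, 8 rose and 6 fell, and the median position of replicate 1 over the 11 with a held-out placement was 0.636. The count of rises stayed at 7 or 8 when any 1 untreated library was left out, while that of falls was 2 without sh-PHLPP1 replicate 2 or 3. Ppp1r15a, the phosphatase subunit that ends the integrated stress response, had 34.9, 24.8 and 37.0 CPM in sh-Luc and 68.7, 68.8 and 80.8 CPM in sh-PHLPP1. Ddit3, which encodes CHOP, had 25.8, 9.86 and 33.6 CPM in sh-Luc and 85.1, 118 and 128 CPM in sh-PHLPP1. In both genes every sh-PHLPP1 library was above every sh-Luc library, and sh-Luc replicate 2 was the lowest. The log2 fold changes were 1.17 and 2.26. Exons of Ddit3 overlap those of Mars on the opposite strand, and the strand setting of the counting is not given, so reads of the pair cannot be told apart. Ern1, which encodes the stress sensor IRE1, rose by 1.22 in log2. Atf5, a stress-induced transcription factor, rose by 1.43. Of 21 tested p53 targets and apoptosis genes, 5 rose and 3 fell, with 9 rises without sh-PHLPP1 replicate 1 and 1 fall without replicate 3. Eda2r, Gadd45a and Pmaip1, which encode a TNF receptor family member, a growth arrest protein and the BCL2-family protein NOXA, rose by 1.43, 1.38 and 1.11 in log2. For these genes replicate 1 was on the side of its own line.

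The cell cycle genes set replicate 1 apart from replicates 2 and 3. All 26 mitosis genes tested were at least 1 higher in log2 CPM in replicate 1 than in either of them. The median difference from the sh-Luc mean was -0.06 in replicate 1 and -1.91 in replicates 2 and 3. The mean level of the list was 6.79, 6.82 and 6.71 log2 CPM in sh-Luc replicates 1 to 3 and 6.74, 4.90 and 4.86 log2 CPM in sh-PHLPP1. Replicate 1 was within the sh-Luc range, and replicates 2 and 3 were far below it. In these bulk samples, fewer dividing cells and less of these transcripts per cell cannot be told apart.

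With all 3 libraries in the test, 6 of the 26 mitosis genes fell and none rose. Of all genes, 12.2% were called lower and 27.0% in either direction. Without replicate 1, all 26 fell, in a fit that called 47.6% of all genes. Without sh-PHLPP1 replicate 2 or 3, or sh-Luc replicate 1 or 3, none was called, and without sh-Luc replicate 2, 2 fell. Aurka, a kinase of the mitotic spindle, had 132, 137 and 130 CPM in sh-Luc and 112, 34.6 and 34.1 CPM in sh-PHLPP1. Its log2 fold change was -1.14 ± 0.35 (SE; adjusted p = 0.0319, edgeR's quasi-likelihood test with Benjamini-Hochberg adjustment) and -1.95 without replicate 1. Replicate 1 was just under the lowest sh-Luc library and more than the sum of replicates 2 and 3. Cdk1, the kinase that drives entry into mitosis, had 124, 123 and 120 CPM in sh-Luc and 108, 43.2 and 42.0 CPM in sh-PHLPP1. Ccnb1, its cyclin, had 121, 114 and 110 CPM in sh-Luc and 97.6, 19.2 and 18.6 CPM in sh-PHLPP1. Ccnb1 was not called with replicate 1 (-1.35, adjusted p = 0.0542) and was called without it (-2.61, adjusted p = 2.77e-08). The calls of Aurka and Cdk1 were lost without any 1 of the sh-Luc libraries or without sh-PHLPP1 replicate 2 or 3, where the log2 fold change ranged from -1.16 to -0.86 and from -0.95 to -0.70. Cenpa, which marks centromeres, and Ccnb2, another cyclin, had log2 fold changes of -1.26 and -0.98, and were at -2.08 and -1.55 without replicate 1, as Cdk1 was at -1.53; the calls of Cenpa and Ccnb2 were lost without sh-Luc replicate 1 or 3 or sh-PHLPP1 replicate 2 or 3, at -1.25 to -0.97 and -0.95 to -0.75. Kif20a, Tpx2 and Kif2c, spindle proteins, were called only without replicate 1 among these leave-outs, at -2.62, -2.21 and -2.75.

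DNA replication genes had the same split. Of 28 tested, 15 fell and none rose, 28 fell without replicate 1, and replicate 1 was at least 1 above both replicates 2 and 3 in 21. Without sh-Luc replicate 2 the count of falls was 4, and without sh-PHLPP1 replicate 2 or 3 it was 3. Mcm2, a subunit of the replicative helicase, had 263, 302 and 261 CPM in sh-Luc and 223, 101 and 105 CPM in sh-PHLPP1, a log2 fold change of -0.94. It was -1.42 without replicate 1 and was not called without sh-PHLPP1 replicate 2 (-0.75) or 3 (-0.77). Gins2 and Cdc6, which help to load and activate that helicase, fell by 1.06 and 1.07 in log2. Ccne1, the cyclin of entry into S phase, was an exception: it had 58.7, 86.1 and 57.3 CPM in sh-Luc and 34.6, 33.9 and 32.3 CPM in sh-PHLPP1. All 3 sh-PHLPP1 libraries were alike in Ccne1, which fell by 1.00 in log2 (adjusted p = 0.000741, edgeR's quasi-likelihood test with Benjamini-Hochberg adjustment).

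Promoters of the mitosis genes are shown because these genes moved together. They are known for CCAAT boxes, bound by NF-Y, and for the cell cycle genes homology region TTTGAA, bound by the DREAM and MuvB complexes. RefSeq promoter windows (GRCm38.p6, 250 bases before to 50 after a start) were found for 22 of the 26 genes, 23 windows in all. Searched on both strands, CCAAT was in 20 of the 23 (87%) against 37.4% of all 32851 windows. TTTGAA was in 17 (73.9%) against 17.9%, and both motifs were in 16 (69.6%) against 6.95%. Both motifs were chosen after the values were seen, and a match is only a match of letters. The windows of Plk1 (chr7:122159185-122159484, plus strand) and Aurka (chr2:172370521-172370820, minus strand) hold both, shown in capitals, with the start of transcription 50 bases from the end. Plk1, a mitotic kinase chosen here after its values were seen, had 152, 149 and 153 CPM in sh-Luc and 128, 26.5 and 29.3 CPM in sh-PHLPP1. Its log2 fold change was -1.31 (adjusted p = 0.0483, edgeR's quasi-likelihood test with Benjamini-Hochberg adjustment), and the call was lost in each fit without 1 library except that without replicate 1 (-2.44), at -1.33 to -0.95.
Plk1: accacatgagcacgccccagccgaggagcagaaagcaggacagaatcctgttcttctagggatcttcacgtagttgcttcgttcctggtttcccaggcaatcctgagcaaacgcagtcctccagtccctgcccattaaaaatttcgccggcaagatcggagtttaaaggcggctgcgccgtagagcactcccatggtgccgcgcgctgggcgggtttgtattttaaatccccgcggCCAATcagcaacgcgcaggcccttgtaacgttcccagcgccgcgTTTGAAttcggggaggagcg
Aurka: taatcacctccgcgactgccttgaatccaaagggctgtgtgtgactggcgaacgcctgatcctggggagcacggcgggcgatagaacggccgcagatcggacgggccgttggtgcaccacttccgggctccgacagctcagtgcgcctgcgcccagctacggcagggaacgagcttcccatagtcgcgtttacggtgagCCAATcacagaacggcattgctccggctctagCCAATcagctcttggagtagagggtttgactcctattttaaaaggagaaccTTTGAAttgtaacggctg

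**Figure D4:**
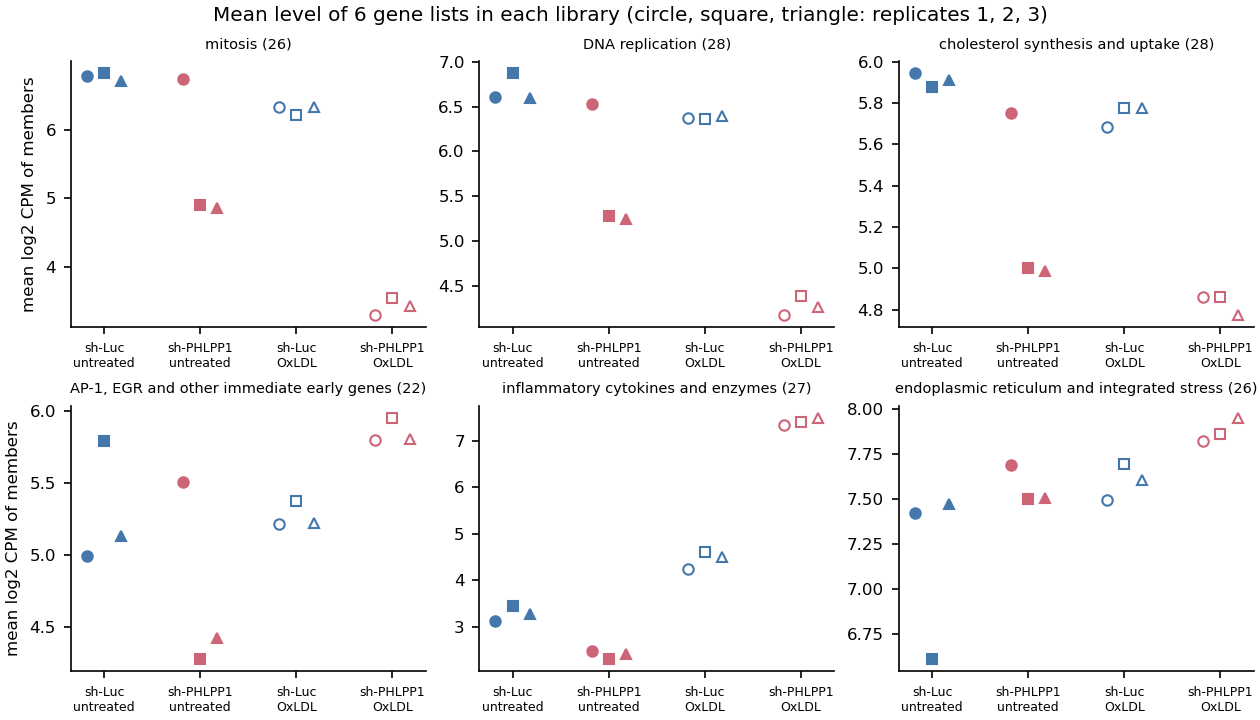
Mean log2 CPM of the tested members of 6 gene lists in each of the 12 libraries, with filled symbols untreated and open symbols after OxLDL. In mitosis, DNA replication and cholesterol synthesis the untreated sh-PHLPP1 replicate 1 (circle) lies near sh-Luc and apart from replicates 2 and 3, and in the inflammatory list the 3 sh-PHLPP1 libraries lie together below sh-Luc.

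Many genes of cholesterol synthesis were lower in the sh-PHLPP1 line, with larger differences in replicates 2 and 3. Of 28 tested genes of cholesterol synthesis and uptake, 15 fell and 2 rose, with a median log2 fold change of -0.64. The median difference from the sh-Luc mean was -0.14 in replicate 1 and -0.89 in replicates 2 and 3. Without replicate 1, 22 fell. Without sh-PHLPP1 replicate 2 or 3, 4 or 5 fell, and without sh-Luc replicate 1 or 3, 7 or 10 fell. Sqle, the squalene epoxidase, had 141, 189 and 135 CPM in sh-Luc and 113, 57.2 and 61.7 CPM in sh-PHLPP1, a log2 fold change of -1.01 (adjusted p = 0.00783, edgeR's quasi-likelihood test with Benjamini-Hochberg adjustment). Replicate 1 lay between the lines. Hmgcs1, which makes HMG-CoA, had 71.6, 73.0 and 64.4 CPM in sh-Luc and 45.9, 47.3 and 43.7 CPM in sh-PHLPP1, a log2 fold change of -0.61. Hsd17b7, a later enzyme, fell by 0.88. These genes did not all have the same split, since Hmgcs1 and Hsd17b7 had like values in all 3 sh-PHLPP1 libraries.

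The genes of the SREBP regulators were low in replicates 2 and 3 and not in replicate 1. Srebf2, which encodes the factor that drives cholesterol synthesis, had 322, 439 and 331 CPM in sh-Luc and 362, 151 and 173 CPM in sh-PHLPP1. Srebf1 (chr11:60199089-60222581, minus strand), whose product drives fatty acid synthesis, had 281, 397 and 288 CPM in sh-Luc and 421, 127 and 128 CPM in sh-PHLPP1. Replicate 1 was within the sh-Luc range for Srebf2 and above every sh-Luc library for Srebf1. Neither was called with it (log2 fold changes of -0.67 and -0.52, adjusted p = 0.0953 and 0.332), and both were called without it (-1.17 and -1.34). Of 19 tested genes of fatty acid and triglyceride synthesis, 4 fell and 1 rose, and 10 fell without replicate 1. Fasn (chr11:120805846-120824547, minus strand), the fatty acid synthase, had 663, 883 and 661 CPM in sh-Luc and 488, 191 and 212 CPM in sh-PHLPP1, a log2 fold change of -1.31 ± 0.30 (SE; adjusted p = 0.00867, edgeR's quasi-likelihood test with Benjamini-Hochberg adjustment). The groups did not overlap, and replicate 1 was the highest of its group. Acaca, the acetyl-CoA carboxylase that precedes it, fell by 0.68 in log2 and Elovl6, an elongase, by 1.19. Acacb, the carboxylase of the mitochondrial membrane, went the other way, from 1.20, 1.01 and 1.05 CPM to 1.42, 5.39 and 5.35 CPM.

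Promoter windows were found for 21 of the 29 listed cholesterol genes (27 windows). The letters CACCCCAC, the core of the sterol response element of the LDL receptor gene, were in 2 windows (7.41%) against 2.87% of all windows, searched on both strands. CCAAT was in 19 (70.4%) against 37.4%, and CACGTG, the E-box, in 6 (22.2%) against 7.15%. The windows with the sterol letters are those of Hmgcs1 (chr13:119690101-119690400, plus strand) and Acat2 (chr17:12960676-12960975, minus strand), printed with CACCCCAC and CCAAT, on either strand, in capitals. They show the contrast above: Hmgcs1 was equally low in all 3 sh-PHLPP1 libraries. Acat2, the cytosolic acetoacetyl-CoA thiolase, chosen here for its promoter, had 60.0, 38.9 and 57.7 CPM in sh-Luc and 36.4, 10.9 and 11.3 CPM in sh-PHLPP1. Its log2 fold change was -1.42, it was -2.24 without replicate 1, and it was not called without sh-PHLPP1 replicate 2 (-1.14) or 3 (-1.15).
Hmgcs1: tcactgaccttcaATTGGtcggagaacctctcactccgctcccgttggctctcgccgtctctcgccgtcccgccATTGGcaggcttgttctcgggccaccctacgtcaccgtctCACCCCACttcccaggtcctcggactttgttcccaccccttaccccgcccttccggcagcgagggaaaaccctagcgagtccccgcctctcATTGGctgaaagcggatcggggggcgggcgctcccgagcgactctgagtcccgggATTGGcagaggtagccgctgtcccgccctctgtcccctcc
Acat2: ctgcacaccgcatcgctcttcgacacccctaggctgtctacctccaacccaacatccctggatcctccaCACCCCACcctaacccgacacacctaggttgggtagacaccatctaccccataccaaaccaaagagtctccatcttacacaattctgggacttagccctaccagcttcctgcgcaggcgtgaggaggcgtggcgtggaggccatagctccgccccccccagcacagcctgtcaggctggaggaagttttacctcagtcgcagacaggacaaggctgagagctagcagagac

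The immediate early genes, which cells switch on within minutes of a stimulus, did not all move alike, and some of them were far higher in replicate 1 than in replicates 2 and 3. The mean level of the list was 4.99, 5.79 and 5.13 log2 CPM in sh-Luc and 5.50, 4.28 and 4.42 log2 CPM in sh-PHLPP1, so the highest library was sh-Luc replicate 2 and the next was sh-PHLPP1 replicate 1. Replicate 1 was at least 1 above both replicates 2 and 3 at 6 genes. Of 22 tested, 6 fell and none rose, a share called close to the 27.0% of all genes. Without replicate 1, 14 fell, in a fit that called 47.6% of all genes. Without sh-Luc replicate 2 or sh-PHLPP1 replicate 2 or 3, 2, 2 or 3 fell. Over the 10 with a held-out placement, the median position of replicate 1 was -0.14, beyond sh-Luc. Fosb, an AP-1 subunit, had 17.2, 86.6 and 19.2 CPM in sh-Luc and 106, 5.36 and 5.07 CPM in sh-PHLPP1. Fos had 108, 203 and 111 CPM in sh-Luc and 352, 38.4 and 43.5 CPM in sh-PHLPP1. Dusp1, a phosphatase that switches off MAP kinases and whose exons overlap those of Ergic1, had 30.3, 114 and 29.5 CPM in sh-Luc and 205, 9.32 and 10.9 CPM in sh-PHLPP1. In all 3 genes replicate 1 was the highest of the 6 libraries, sh-Luc replicate 2 the next, and replicates 2 and 3 the lowest. Egr1 had 54.2, 54.1 and 58.0 CPM in sh-Luc and 102, 17.0 and 18.9 CPM in sh-PHLPP1. None of the 4 was called with replicate 1. Without it their log2 fold changes were -2.98 (Fosb), -1.78 (Fos), -2.53 (Dusp1) and -1.63 (Egr1), all called. Dusp5, a phosphatase of ERK, did not share this pattern and fell by 2.09 in log2 with like values in all 3 sh-PHLPP1 libraries. Ier3, a survival gene, had 142, 146 and 127 CPM in sh-Luc and 116, 41.1 and 45.6 CPM in sh-PHLPP1. Its fall of 1.04 in log2 was 1.68 without replicate 1 and was not called without sh-Luc replicate 1 or 2 or sh-PHLPP1 replicate 2 or 3, where it lay between -1.02 and -0.78.

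Other genes were high in replicates 2 and 3 and near or below the sh-Luc level in replicate 1. Pi16 had 7.36, 3.46 and 7.04 CPM in sh-Luc and 5.96, 67.3 and 71.7 CPM in sh-PHLPP1. Lsp1, a leukocyte actin-binding protein, had 8.51, 5.51 and 11.1 CPM in sh-Luc and 13.6, 89.5 and 95.2 CPM in sh-PHLPP1. In both, replicate 1 was near sh-Luc and replicates 2 and 3 were alike. Neurl3, Anxa3 and Sqor, which encodes a mitochondrial sulfide oxidase, had gaps of -3.14, -2.76 and -2.62 in log2 CPM from replicate 1 to the nearer of replicates 2 and 3. Their log2 fold changes were 2.02, 1.49 and 1.78. In replicate 1, Neurl3 (2.93 CPM) and Anxa3 (16.1 CPM) lay below every sh-Luc library. The calls of Neurl3 and Sqor were lost without sh-Luc replicate 2 (1.77 and 1.47) or without sh-PHLPP1 replicate 2 (1.66 and 1.47) or 3 (1.70 and 1.48). That of Anxa3 was kept, among the fits that left out 1 library, in the one without sh-PHLPP1 replicate 1 (1.97), and the others gave 1.17 to 1.63.

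The mean level of the tested macrophage identity genes was 7.27, 7.34 and 7.37 log2 CPM in sh-Luc. It was 7.13, 7.57 and 7.53 log2 CPM in sh-PHLPP1 replicates 1 to 3. Replicate 1 was at least 1 below both replicates 2 and 3 at 5 of these genes. Over the 7 with a held-out placement, its median position was 0.10, near sh-Luc. Of 22 tested identity genes, 4 rose and 3 fell, a share called near the 27.0% of all genes. There were 6 falls without sh-PHLPP1 replicate 1, and 2 rises without sh-PHLPP1 replicate 2 or 3 or sh-Luc replicate 1. Lyz2, the lysozyme of myeloid cells, fell by 0.57 in log2. Cebpa, a myeloid transcription factor, had 24.6, 23.9 and 24.1 CPM in sh-Luc and 53.7, 75.9 and 78.2 CPM in sh-PHLPP1, a rise of 1.52 ± 0.15 in log2 (SE; adjusted p = 3.95e-05, edgeR's quasi-likelihood test with Benjamini-Hochberg adjustment). Cebpa was raised in all 3 sh-PHLPP1 libraries, with replicate 1 the lowest of them. Axl, a receptor for dying cells, fell by 1.43 in log2. Mertk and the C1q genes of tissue macrophages were at or near 0 counts. Of 16 tested genes of antigen presentation, 4 rose and 1 fell, also near the share of all genes. Without sh-PHLPP1 replicate 1, 6 rose and 3 fell, and without replicate 2 or 3, 1 rose and 1 fell. Cd86, a costimulatory ligand, had 0.488, 0.322 and 0.211 CPM in sh-Luc and 0.367, 5.13 and 5.67 CPM in sh-PHLPP1. Cd40, a costimulatory receptor, had 7.80, 9.17 and 9.99 CPM in sh-Luc and 8.52, 29.3 and 26.6 CPM in sh-PHLPP1. Both had replicate 1 within the sh-Luc range. The call of Cd40 (1.26) was lost without sh-Luc replicate 1 (1.17) or sh-PHLPP1 replicate 2 (0.97) or 3 (1.08).

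**Figure D5:**
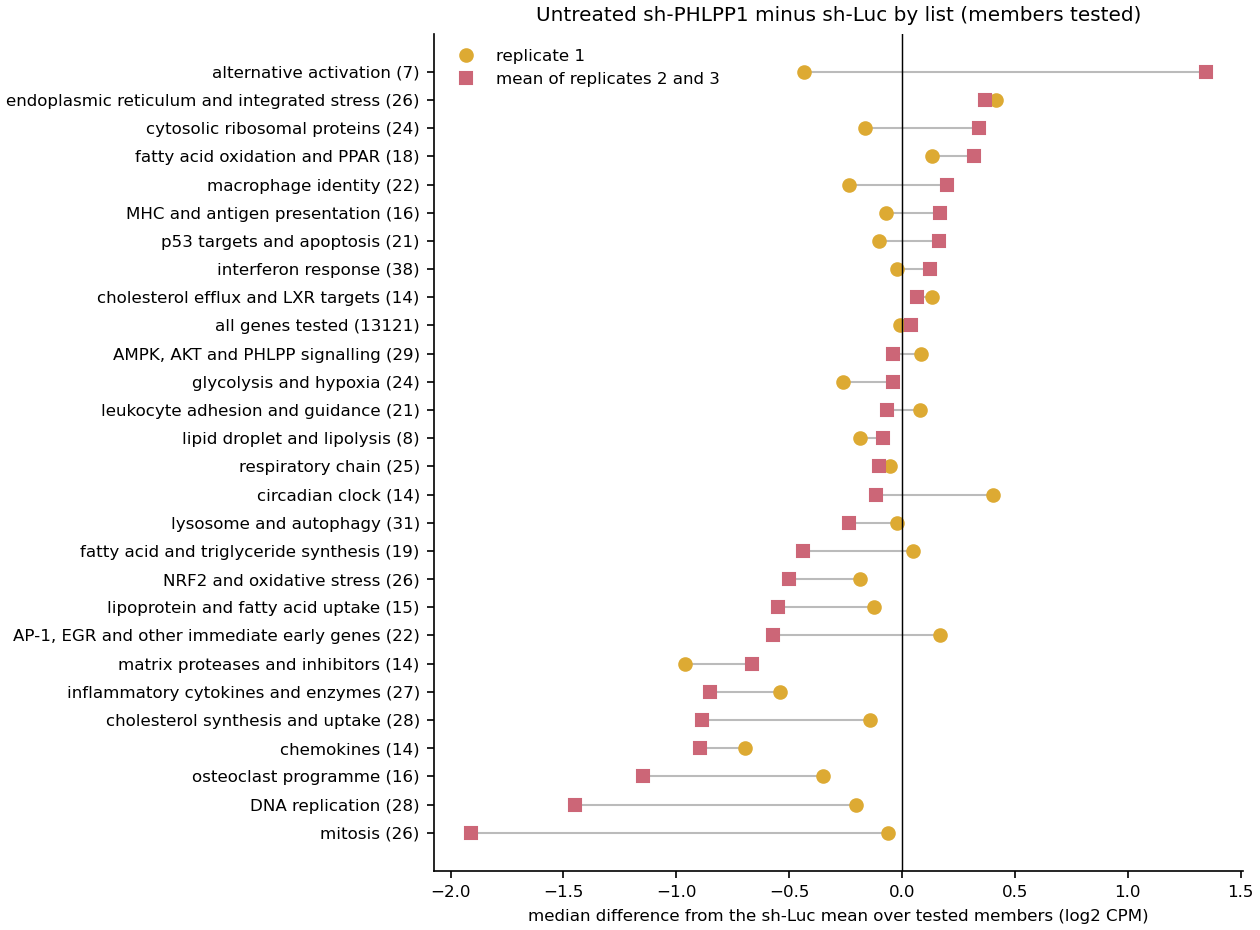
Median difference from the sh-Luc mean in log2 CPM over the tested members of each gene list, for sh-PHLPP1 replicate 1 (circles) and for replicates 2 and 3 together (squares), with the number of members tested in brackets. The gap is wide in mitosis (-0.06 against -1.91) and DNA replication (-0.20 against -1.45). It is also wide in the 7 genes of alternative activation, although replicate 1 stood apart at only 2 of them. Over the 5 of these with a held-out placement, its median position was 0.85, near its own line.

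Replicate 1 also differed from every other untreated library in a smaller set of genes. Abca1, the cholesterol exporter, had 7.89, 4.26 and 9.06 CPM in sh-Luc and 44.7, 19.2 and 20.2 CPM in sh-PHLPP1. It rose by 1.98 in log2 and was highest in replicate 1. Abcg1, its partner, had 164, 59.2 and 154 CPM in sh-Luc and 407, 217 and 222 CPM in sh-PHLPP1, with the same order. Of 14 tested genes of cholesterol efflux and LXR targets, 4 rose and none fell, a share called close to the 27.0% of all genes. Smpdl3a, another LXR target, rose by 2.28 but was lowest of its group in replicate 1. Ranbp3l had 28.9 CPM in replicate 1 and 1.61 to 5.32 CPM in the other 5 libraries. Its call (1.92) was lost without replicate 1 (0.50), without sh-Luc replicate 2 (1.58) or 3 (1.88), and without any 1 OxLDL library (1.92 in each). Atf3, Emp2 and Ccnd1 are named after their values were seen. Atf3, a stress-induced factor, had 111 CPM in replicate 1 and 12.3 to 36.8 CPM elsewhere, and its call (1.38) was lost without replicate 1 (0.63), sh-Luc replicate 1 (1.49) or sh-Luc replicate 2 (1.07). Emp2, a membrane protein, had 17.9 CPM in replicate 1 and 63.4 to 65.5 CPM in the other 5. Ccnd1, the cyclin of growth factor signals, had 503 CPM in replicate 1 against 1018 to 1284 CPM. Replicate 1 had levels near sh-Luc for the mitotic cyclins and the lowest level of this G1 cyclin.

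Further groups are given by their counts. Over all genes tested, 27.0% were called, 14.9% higher and 12.2% lower. The share called was close to this 27.0% in the oxidation, interferon, clock and lipid droplet lists. It was smaller in the lysosome and respiratory chain lists. None of 24 cytosolic ribosomal protein genes was called in edgeR's quasi-likelihood test, although 7 were higher and 2 lower without replicate 1, and 1 was lower in DESeq2. Of 24 tested genes of glycolysis and hypoxia, 9 fell and none rose, among them the lactate exporter Slc16a3 (-1.11) and lactate dehydrogenase Ldha (-0.60). Slc16a3 had like values in the sh-PHLPP1 libraries. Ldha had 2008 CPM in replicate 1 against 1692 and 1703 CPM in replicates 2 and 3, all below sh-Luc. Of 26 NRF2 and oxidative stress genes, 8 fell and none rose, among them the glutathione peroxidase Gpx1 (-0.84). Of 18 genes of fatty acid oxidation and PPAR, 5 rose and none fell, among them Cpt2 and Acadm, enzymes of mitochondrial oxidation (0.52 and 0.61). Of 38 interferon response genes, 4 rose and 6 fell, among them the guanylate-binding protein Gbp3 (-1.68). Of these, 1 or none rose and 2 or 3 fell without sh-PHLPP1 replicate 2 or 3, while 2 rose and 8 fell without sh-Luc replicate 2. Of 31 lysosome and autophagy genes, 3 rose and 3 fell. The autophagy receptor Sqstm1 rose by 1.11, and Gpnmb, a lysosomal glycoprotein, fell by 1.96, a fall that was 1.11 and not called without sh-Luc replicate 2, and not called without sh-PHLPP1 replicate 2 (-1.64) or 3 (-1.65). Of 21 genes of adhesion and guidance, 5 rose and 3 fell, among the former Nrp1, a co-receptor for semaphorins and VEGF (1.41). In that list 7 or 5 fell without sh-PHLPP1 replicate 1 or sh-Luc replicate 1, and 3 rose without sh-PHLPP1 replicate 2 or 3 or sh-Luc replicate 1 or 3. Of 14 clock genes, 3 rose and 1 fell, with Rora, a nuclear receptor, up by 1.63, and 1 rose without sh-PHLPP1 replicate 2 or 3. Of 8 lipid droplet genes, 1 rose and 1 fell, the latter Hilpda, which inhibits lipolysis (-1.12). Of 7 genes of alternative activation, 3 rose and 1 fell. Of 14 matrix proteases and inhibitors, 2 rose and 6 fell, and of 25 respiratory chain genes, 1 rose and 3 fell. Without sh-PHLPP1 replicate 1 the falls rose to 14 in the NRF2 list and 9 in the lysosome list, and the rises to 10 in the oxidation list and 8 in the lysosome list. That fit called 47.6% of all genes, against 27.0% with replicate 1, so calls rose in general. Without sh-PHLPP1 replicate 2 or 3 the counts were smaller: 5 falls in glycolysis and 3 in the NRF2 list, 2 rises in the oxidation list, and no fall in the lysosome or respiratory chain list. Genes were called on each autosome and X at 23.2 to 31.3% of those tested, and the median log2 fold change of a chromosome was between -0.03 and 0.10.

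The same lines after OxLDL gave a second set of libraries. There 7240 genes (55.2%) were called between the lines. Of the 3549 genes called in the untreated libraries, 2084 (58.7%) were called in the same direction after OxLDL, which is 28.8% of the calls there. Another 239 (6.73%) were called in the opposite direction. Of the 951 genes where replicate 1 was near sh-Luc, 615 (64.7%) were called after OxLDL in the direction of the untreated test with all 3 replicates. Of the 328 where it was near its own line, 203 (61.9%) were. In the opposite direction, 23 (2.42%) of the former and 35 (10.7%) of the latter were called. The differences between these shares were not tested. Plxna4, Ctsk, Lair1 and Nxf7 kept their difference, with log2 fold changes after OxLDL of -6.67, -6.35, -4.58 and 4.01. Ccnb1 was lower after OxLDL in all 3 sh-PHLPP1 libraries, with 9.39, 10.7 and 10.8 CPM against 70.8, 80.8 and 80.8 CPM. Nos2 and Ptges, which were low in the untreated sh-PHLPP1 line, were not low there after OxLDL: Nos2 had 305, 307 and 262 CPM in the sh-PHLPP1 line and 246, 338 and 308 CPM in sh-Luc, and Ptges was called higher than in sh-Luc (0.77).

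The authors' deposited table for this comparison listed 12028 genes, of which 2449 had an adjusted p under 0.05, 1282 higher and 1167 lower. Of these, 2346 were also called from the counts here, all with the same sign.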

How the data were processed

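RNA from 12 libraries of RAW 264.7 macrophages was sequenced in bulk, in 4 groups of 3. The deposited table holds raw read counts per gene for 39179 rows. Per the submitters' processing notes, the authors used FastQC, Trimmomatic, HTSeq, DESeq2 and GRCm38. Versions, the aligner, the annotation and the strand setting are not given in the sources used here. Raw reads no longer exist, according to the design text of the series. The authors' deposited comparison table gives log2 fold changes and p-values with adjusted p-values.

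From the counts, edgeR 4.0.16 (R 4.3.3) was fitted to all 12 libraries with 4 group means, its own filter on low counts, TMM scaling and the quasi-likelihood test, with Benjamini-Hochberg adjustment over 13121 genes. Calls were made at adjusted p-values below 0.05. The SE is the log2 fold change divided by the root of the F statistic, and is approximate. Log2 CPM used a prior count of 2. The 1632 rows that lack a symbol, with 0.397% to 0.505% of each library's counts, were filtered and tested like the others. They were left out only when genes were named. A count of 0 allows up to 3 counts, which is 0.0999 to 0.137 CPM in the untreated libraries and covers counting error only. Coordinates are those of GENCODE M21 (GRCm38) and promoter windows those of RefSeq (GRCm38.p6).

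Named genes were the 12 highest and 12 lowest fold changes among called genes whose groups did not overlap and whose mean level was 2 log2 CPM or more, the 10 largest gaps of sh-PHLPP1 replicate 1 in each direction, up to 4 genes of smallest p per list, up to 8 of smallest p at a replicate 1 position under 0.25 and over 0.75, and a few set genes of PHLPP1, AMPK and lipid synthesis; not all are printed, and a few genes are not reported here. The members, the 34 gene lists and the tests were chosen with earlier results of these data known. Same-numbered untreated libraries deviated with correlations of -0.154, -0.278 and 0.277, so the numbers were not taken to pair them. Exons of 7 named genes overlap a gene on the opposite strand with at least 5% of their counts: Aldh1l2, Ddit3, Dusp1, Gins2, Kif20a, Mlx and Srebf1. Their values are uncertain to that extent. Scripts were tested on simulated data. Alternatives were the 6 untreated libraries alone, DESeq2 1.42.0, its size factors, library size scaling, no filter, a robust fit, the replicate number as a block, and leaving out each library and both libraries that stand apart.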

Additional observations from a re-analysis of the deposited data

Results flagged for a closer look

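The difference between the lines was itself different after OxLDL for 3231 genes (24.6%), in edgeR's quasi-likelihood test of the interaction with Benjamini-Hochberg adjustment. Nos2, Ptges, Ptgs2 and Acod1 were among them: the log2 fold change after OxLDL minus the untreated one was 3.40 ± 0.22 (SE; adjusted p = 1.6e-06) for Nos2, 4.18 (adjusted p = 4.29e-07) for Ptges, 7.13 (adjusted p = 1.7e-05) for Ptgs2 and 5.53 (adjusted p = 2.02e-08) for Acod1. Ptgs2 and Acod1 were lower than in sh-Luc when untreated and higher after OxLDL, with log2 fold changes of 4.49 and 3.43 there. For Cd36 and Fabp4 the differences were 2.60 (adjusted p = 0.000365) and 4.53 (adjusted p = 2.66e-05). Cd36 was not called after OxLDL (-0.52, adjusted p = 0.0851), and Fabp4 was still lower (-0.80, adjusted p = 0.0113). The difference was -0.77 for Phlpp1 (adjusted p = 0.0133), -2.78 for Spn (adjusted p = 0.0441) and -1.60 for Fasn (adjusted p = 0.017). Plxna4, Ctsk, Lair1, Nxf7 and Ccnb1 gave differences of -0.23, -0.01, -0.50, 0.00 and -1.56 that were not called (adjusted p = 0.853, 0.998, 0.361, 1 and 0.115), which does not show that they were equal. The untreated side of each interaction holds sh-PHLPP1 replicate 1.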

How the results depend on the processing

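The count of 3549 called genes was 733 with the 6 untreated libraries alone and 6267 without both libraries that stand apart, and ranged from 1515 to 6372 when 1 library was left out. It was within 1.5 times in the other settings, among them 4233 with DESeq2 and 3282 with the replicate number as a block. In the main test the numbers were not taken to pair the samples. Without sh-Luc replicate 2 it was 2247. Of 85 named called genes, 34 were not called with the 6 libraries alone: Foxo1, Mlx, Ccl4, Acp5, Sh2d6, Lsp1, Atf5, Atf3, Cenpa, Ccnb2, Cdk1, Aurka, Plk1, Gins2, Cdc6, Mcm2, Sqle, Acat2, Fasn, Acaca, Ier3, Pi16, Neurl3, Anxa3, Sqor, Cd86, Cd40, Lyz2, Abcg1, Ranbp3l, Gpnmb, Acadm, Gbp3 and Acacb. Over 99 named genes besides Phlpp1, 1815 of 1977 values kept direction and side of the threshold, 117 lost a call, 25 gained one and 20 changed sign. Signs changed with library size scaling for Prkaa1 (0.072), Fosb (0.0595) and Ccnd1 (0.0647), with the replicate block for Dusp1 (-0.14) and Fos (-0.39), and without both libraries that stand apart for Dusp1 (-1.57), Fos (-1.42), Emp2 (0.00906) and Ccnd1 (0.29). Leaving out 1 library gave -2.98 to 1.08 for Fosb, -2.53 to 1.32 for Dusp1, -1.78 to 0.49 for Fos, -1.63 to 0.12 for Egr1, -0.64 to 0.0067 for Emp2 and -0.28 to 0.26 for Ccnd1. The cause was not tested. Phlpp1 was not called in any alternative (0.09 to 0.31). Genes with few counts, such as Cox6a2 in sh-Luc, are limited by depth.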
